A study of Mus musculus with 6 samples.

Results

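The MYC, MAX and MXD network is a family of transcription factors that share a basic helix-loop-helix leucine zipper and bind E-box DNA as pairs. Its members were chosen by name, as the entries of the authors' deposited table listed under Myc, Mycn, Mycl1, Max, Mxd1, Mxd3, Mxd4, Mxi1, Mnt and Mga, with Myc as the lead gene. All 10 were present and all 10 had a p-value, of 18543 tested entries among 29209 in the table. They were picked with their values in this comparison known, so those values are given as a description and support no further claim.

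MYC proteins activate growth genes when paired with MAX, whereas MXD proteins and MNT compete for MAX and bring the SIN3 corepressor to the same E-boxes. MGA also pairs with MAX, and sits in a Polycomb complex that silences genes. In lymphoid cells the balance between these pairs accompanies growth and division on one side and rest or differentiation on the other, and excess MYC is a hallmark of many lymphomas.

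The table compares subcutaneous tumours of NCr nude mice, a strain without a thymus and so with few mature T cells. The tumours grew from injected splenic cells of diseased mir-155LSLtTA mice, which carry a tetracycline-controlled miR-155 transgene that doxycycline turns off. In the DOX group, 3 tumour samples came from mice fed chow with 2.3 mg/kg doxycycline for 16 hours before harvest. In the no DOX group, 3 samples came from untreated mice whose tumours kept overexpressing miR-155. The labels name neither the driver of the transgene nor any pooling of animals. Both groups carry the transgene, the level of miR-155 itself is not analysed here, and no tumour without it received doxycycline, so effects of the drug and of losing miR-155 cannot be told apart. The labels do not state whether a group's 3 samples are 3 animals, so the p-values cover sample-to-sample spread that may be technical only.

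The deposited table gives 1 ratio, 1 p-value and 1 adjusted p per entry, and no value per sample, no level per group and no depth. The numerator of the ratio is not stated in the sources used here. It was read as DOX over no DOX, and every direction below turns round if the authors divided the other way. An approximate standard error (SE) was obtained by dividing each log2 fold by the normal quantile of its p-value. Markers of other cell types were read in the same comparison. In the authors' deposited table all 12 tested macrophage markers had a ratio above 1 (median log2 fold 2.02), and 2 were higher at an adjusted p under 0.05. Fibroblast markers had a median of 2.10, with 2 of 10 higher, endothelial markers one of 0.89, with 1 of 7 lower, and the 6 tested T cell markers one of 1.11 with no call. The 10 B lineage markers had a median of 0.07, with 2 higher and 1 lower. For all tested entries the shares were 5.72% higher and 5.61% lower, and the median of finite folds was 0.17. In lists this short, 1 or 2 calls are not read as a departure from those shares. The part of other cell types in the results was not tested. The labelled tumour was not checked by marker level, since the table gives no levels. In bulk tumour RNA fewer cells of a type and less RNA per cell cannot be told apart.

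Of the 10 network genes, Myc fell and Mga rose past the threshold, an adjusted p (Benjamini-Hochberg) under 0.05, and the other 8 did not pass. Among all tested entries 5.61% were lower and 5.72% higher at that threshold. Since the genes were picked from this same comparison, nothing is read from their share. The members' median log2 fold was -0.38, and that of all tested entries with a finite fold was 0.17.

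**Figure D1:**
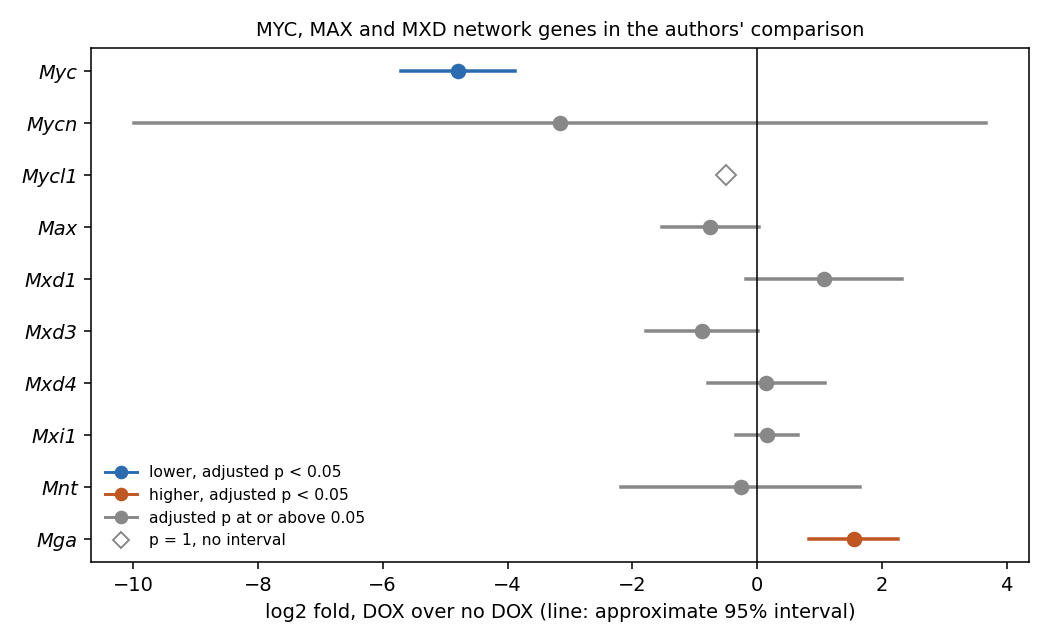
Log2 fold (x axis, DOX over no DOX, from the authors' deposited ratios) of each network gene (y axis). Lines are approximate 95% intervals derived from the fold and its p-value, and the open diamond marks Mycl1, whose p-value of 1 gives none. Myc lies far left of 0 at -4.80 with a narrow interval, Mga lies right of 0 at 1.55, and the interval of Mycn runs from -9.98 to 3.67.

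Among the activators, Myc, the proto-oncogene that drives ribosome production and cell cycle entry, had a ratio of 0.0359 in the authors' deposited table. Read as DOX over no DOX, this puts its level in DOX tumours at 3.59% of that in no DOX tumours, and the opposite reading would make it higher with DOX by the inverse of the ratio. The log2 fold was -4.80 (approximate SE 0.47, 95% interval -5.71 to -3.89), with an adjusted p of 4.34e-21 in the authors' deposited table. By unadjusted p, Myc stood at place 3 of 18543. Just before it in the authors' deposited table stood the stem cell factor receptor gene Kit (log2 fold -4.25) and the tyrosine kinase gene Src (-4.60). Just after it stood Emid1 (-4.67) and the cytokine gene Mif (-3.56) in the authors' deposited table.

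Neither Myc paralogue passed, and Mycn was much less precisely measured than Myc. Mycn, the paralogue of neural and early lymphoid precursors, had a ratio of 0.112 and a log2 fold equal to -3.16 in the authors' deposited table. Its approximate SE of 3.48 exceeded the fold itself, and its adjusted p was 0.743 in the authors' deposited table. Mycl1 (now Mycl), known from lung cancer and dendritic cells, had a ratio of 0.711 and a p-value of 1 in the authors' deposited table, from which no SE can be derived. No change was detectable for either, and the interval of Mycn includes both a fall as large as that of Myc and a rise.

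Max, the shared partner with which MYC and MXD proteins bind DNA, had a ratio of 0.594 in the authors' deposited table. Its log2 fold of -0.75 (approximate SE 0.40) had an interval from -1.53 to 0.03 and an adjusted p of 0.252, from the authors' deposited table. It did not pass, and its whole interval lies above that of Myc.

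None of the MXD genes, which encode the repressive partners of MAX, passed. Mxd1, which is induced as blood cells mature, had a ratio of 2.10 and a log2 fold of 1.07 (approximate SE 0.64, interval -0.18 to 2.32) in the authors' deposited table. Its adjusted p there was 0.333. Mxd3, the MXD member expressed in S phase of dividing cells, had a ratio of 0.543 and a log2 fold of -0.88 (approximate SE 0.46, interval -1.78 to 0.02, adjusted p = 0.238) in the authors' deposited table. The intervals of both genes include 0, so neither direction is established.

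Mxi1 and Mxd4 lay closest to no change. Mxi1, the MXD member also known as MXD2, had a ratio of 1.11 and a log2 fold of 0.16 with an approximate SE of 0.25 (interval -0.34 to 0.65) in the authors' deposited table. This was the narrowest derived interval of the network. For folds near 0 the derived SE is unstable and no direct measure of precision. At log2 folds of -0.03 and -0.04 it was 7.75 for Trrap and 0.15 for Ctnnb1. Mxd4 had a ratio of 1.11 and a log2 fold of 0.15 (approximate SE 0.48, interval -0.79 to 1.08) in the authors' deposited table. Measured from the median of all entries, 0.17, both folds were slightly negative, at -0.015 for Mxi1 and -0.024 for Mxd4. Mnt, the broadly expressed MAX partner that opposes MYC, had a ratio of 0.831 in the authors' deposited table. Its log2 fold of -0.27 carried an approximate SE of 0.97. The derived interval, from -2.18 to 1.64, includes moderate changes in either direction.

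Mga, the largest protein of the network and its other DNA-binding MAX partner, had a ratio of 2.92 in the authors' deposited table. The log2 fold was 1.55 (approximate SE 0.37, interval 0.83 to 2.26), with an adjusted p of 0.000869 in the authors' deposited table and place 499 by unadjusted p. After a Bonferroni adjustment of the authors' p-values over all 18543 entries Mga no longer passed (adjusted p = 0.434), whereas Myc did (1.30e-20).

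Transcript length moved with direction across the table, and the network genes lie at different lengths. With 14113 genes in 10 equal bins of length, 14.9% of the shortest bin were lower and 0.779% higher, and in the longest bin 2.97% were lower and 15.5% higher. The longest coding transcript of Mga, 13931 bases in GENCODE release M21, falls in the longest bin, where the median log2 fold was 0.73. That of Myc, 2338 bases, falls in the fourth bin, where 7.09% of genes were lower and the median was -0.02. Max (1942 bases) and Mxd3 (1327 bases) lie in shorter bins with medians of -0.22 and -0.35, and Mxd1 (4666 bases) in a longer one with a median of 0.24. The part of length in these folds was not tested.

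**Figure D2:**
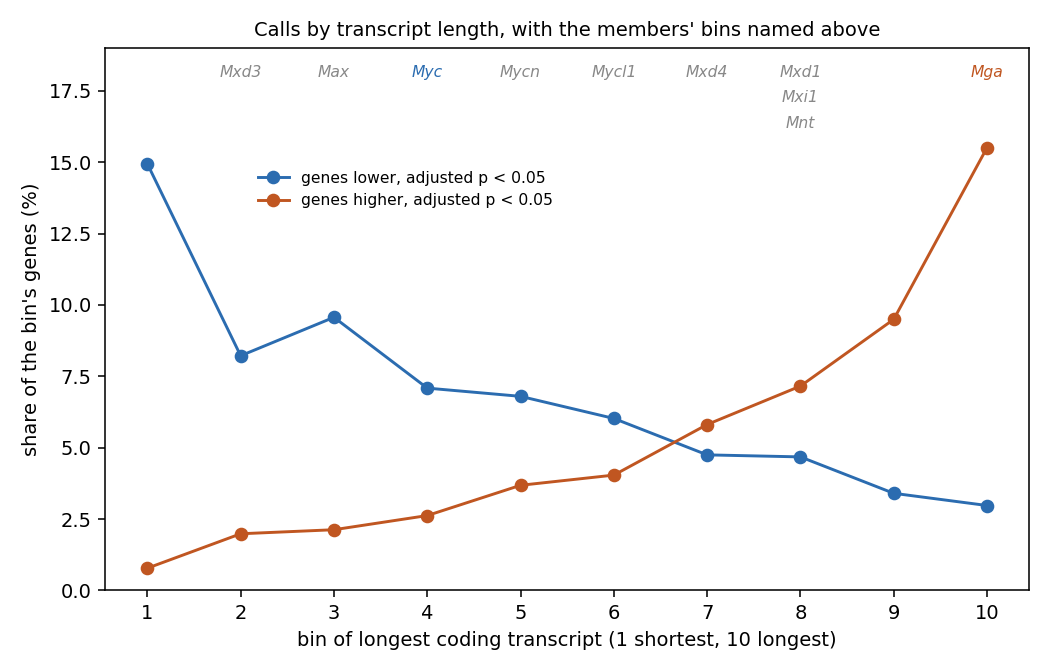
Share of genes (y axis, percent) called lower or higher with DOX at an adjusted p under 0.05, in 10 equal bins of longest coding transcript (x axis, shortest to longest). Names above the lines mark the bin of each network gene: Mga sits in the bin with the highest share of higher genes, 15.5%, and Myc in a bin with 7.09% lower.

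The transgene's product acts through its seed, so the 3' UTRs of the network genes were searched for it. The mature miR-155-5p of RefSeq (build GRCm38.p6, chr16:84714143-84714165, plus strand), with seed bases 2 to 8 in capitals, pairs with AGCATTA (7mer-m8) or, followed by A, with GCATTAA (7mer-A1). The 3 sites below are the only such matches in the longest annotated 3' UTRs of the 10 genes (GENCODE release M21, GRCm38), shown as transcript sequence with the match in capitals.
miR-155-5p: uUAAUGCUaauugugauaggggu
Mxd1 3' UTR site: caggtatgaaccccAGCATTAAgactttga
Mycl1 3' UTR site: cttgatcagcatggAGCATTAcctcaccgt
Mxi1 3' UTR site: ggcaggataatcagGCATTAAtctcagata

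The Mxd1 match has both features (an 8mer) and begins at base 2222 of a 3' UTR of 3829 bases; the printed stretch is chr6:86648634-86648663 on the minus strand. That of Mycl1 lies at chr4:123001037-123001066 on the plus strand and is a 7mer-m8 at base 536 of 1970. The Mxi1 match, at chr19:53372146-53372175 on the plus strand, is a 7mer-A1 at base 424 of 4074. None of these 3 genes passed the threshold, and their log2 folds were 1.07, -0.49 and 0.16 in the authors' deposited table. Myc and Mga, which did pass, have no match, in 3' UTRs of 466 and 4616 bases. Of all 14084 genes with a 3' UTR, 13.5% hold a 7mer or 8mer match and 3.27% an 8mer. By call, 8.39% of lower, 25.6% of higher and 13.2% of uncalled genes hold a 7mer or 8mer match. Their median 3' UTRs differ too, at 666, 1902 and 1149 bases. The part of 3' UTR length in these shares was not tested. The median was 2187.5 bases for the network genes and 1145 for all genes. A match is a description of the sequence and no measured site.

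Genes with a known tie to the network were read from 8 lists covering partners, cofactors, targets and regulators. The lists were written with earlier results of these data known, so their counts are not independent evidence of a direction.

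**Figure D3:**
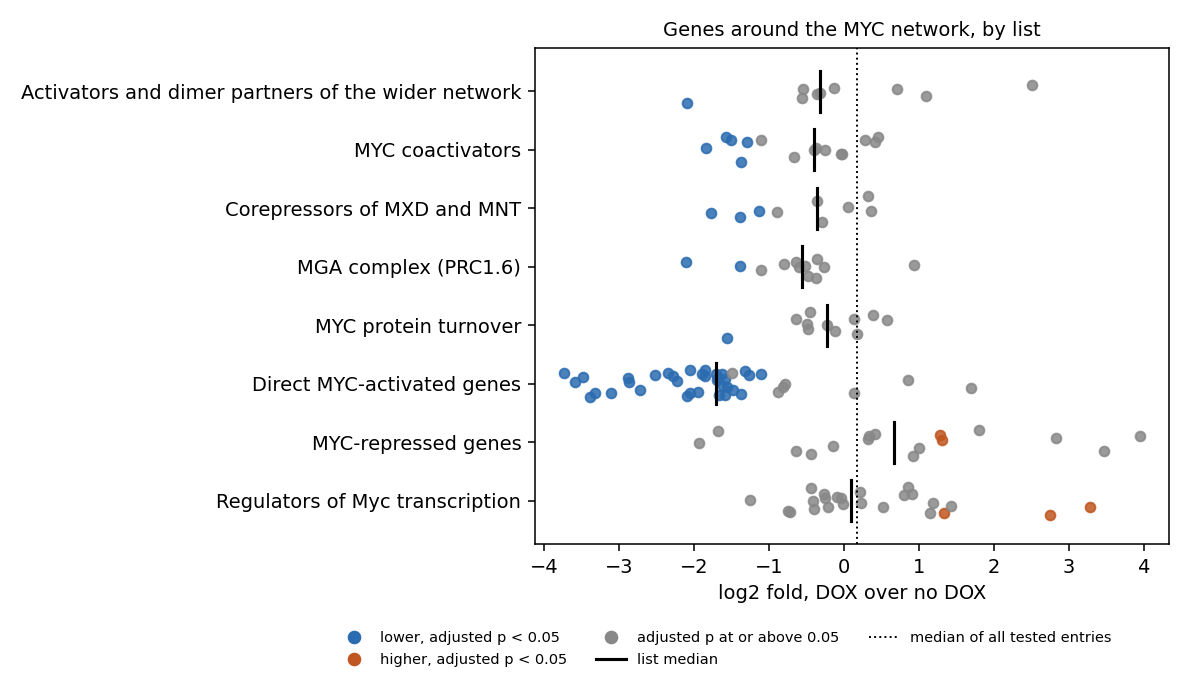
Log2 fold (x axis, DOX over no DOX, from the authors' deposited ratios) of the genes of each list (y axis), with points coloured by call at an adjusted p of 0.05. Black bars are list medians and the dotted line is the median of all tested entries. Of the genes directly activated by MYC, 38 lie left of 0 and 3 right of it, with a median of -1.70, and every list has genes on both sides of 0.

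Most genes directly activated by MYC fell. Of 41 tested in the authors' deposited table, 34 fell and 0 rose. This was 82.9% lower, against 5.61% of all entries and an average of 7.76% over the list's bins of transcript length. Since no levels are given, expression level was not matched in these shares or in those of the other lists. The list's median log2 fold was -1.70. By adjusted p the leading members were the lactate dehydrogenase gene Ldha (-2.86, approximate SE 0.37) and the rRNA methyltransferase gene Fbl (-2.87, 0.41) in the authors' deposited table. Next came the mitochondrial serine hydroxymethyltransferase gene Shmt2 (-3.48, approximate SE 0.51) and Pa2g4, a growth-linked RNA-binding protein (-2.52, 0.38), in the authors' deposited table. The nucleoside diphosphate kinase gene Nme1 (-3.11, approximate SE 0.47) and the G1 cyclin gene Ccnd2 (-3.58, 0.54) completed these 6 in the authors' deposited table. Their adjusted p-values ran from 5.68e-12 to 1.83e-08.

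The 7 list members that did not pass were Gnl3, Ppan, Eno1, Eif4e, Tfrc, Tert and Mina. Of these, the transferrin receptor gene Tfrc (log2 fold 0.86), the telomerase gene Tert (1.70) and Mina (0.14) had a ratio above 1 in the authors' deposited table. Their adjusted p-values there were 0.108, 0.216 and 0.937. Several genes on the list, among them Npm1, Ptma, Ldha and the adjoining pair Nme1 and Nme2, have near-identical copies or pseudogenes, so the division of reads among copies is uncertain.

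Genes that MYC is known to repress were read beside these. Of 17 tested, 2 rose and 0 fell in the authors' deposited table (11.8% higher, against 5.72% of all entries and an average of 3.71% over the list's bins of transcript length). A count of 2 in 17 is not read as a departure from that background. The median log2 fold was 0.67 over the 16 with a finite fold. Hbp1, a brake on cell cycle entry that is also a reported miR-155 target, had a log2 fold of 1.29 (approximate SE 0.35, adjusted p = 0.00566) in the authors' deposited table. Cdkn1b, which encodes the CDK inhibitor p27, had one of 1.31 (approximate SE 0.40, adjusted p = 0.0153) in the authors' deposited table. The CDK inhibitor genes Cdkn1a (-1.68, adjusted p = 0.701) and Cdkn2b (-1.94, 0.313), both classic MYC-repressed genes, had a ratio below 1 and missed the threshold in the authors' deposited table.

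Among MYC coactivators 5 of 15 fell and 0 rose in the authors' deposited table (33.3% lower, against 5.61% of all entries and an average of 5.97% over the list's bins of transcript length). All of them are enzymes or subunits of chromatin complexes. They were the paired ATPase genes Ruvbl2 (log2 fold -1.83) and Ruvbl1 (-1.38), the actin-related Actl6a (-1.50), the SWI/SNF core gene Smarcb1 (-1.29) and the acetyltransferase gene Kat2a, listed as Gcn5l2 (-1.57), in the authors' deposited table. The scaffold gene Trrap, which recruits acetyltransferases to MYC, stood at -0.03 on the log2 scale and Ep400 at -0.25 in the authors' deposited table, and neither passed.

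Of the 9 corepressor genes that serve MXD and MNT, 3 fell in the authors' deposited table and 0 rose (33.3% lower, against 5.61% of all entries and 6.27% over the list's bins of transcript length). The histone-binding genes Rbbp7 (log2 fold -1.77, adjusted p = 0.000436) and Rbbp4 (-1.13, 0.0190) and the deacetylase gene Hdac1 (-1.39, 0.00402) fell in the authors' deposited table. These proteins also belong to other chromatin complexes. The SIN3 genes themselves did not pass, with log2 folds of -0.29 for Sin3a and 0.06 for Sin3b in the authors' deposited table.

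The partners of MGA in its Polycomb complex were counted in the same way. Of 12 partner genes 2 fell and 0 rose in the authors' deposited table (16.7% lower, against 5.61% of all entries, with 5.72% of all entries higher). In the list's bins of transcript length an average of 7.52% were lower and 3.22% higher. Neither 2 of 12 lower nor 0 of 12 higher is read as a departure from that background. In all, 11 of 12 had a ratio below 1 (median log2 fold -0.56). Tfdp1, the E2F dimer partner, fell with a log2 fold of -2.10 (approximate SE 0.38, adjusted p = 4.67e-06) in the authors' deposited table. The other was Hdac1, already counted among the corepressors. E2f6 (-0.79), Pcgf6 (-0.64) and L3mbtl2 (-0.52), the partners that define this complex, missed the threshold in the authors' deposited table.

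Of 9 other dimer partners and E-box factors, 1 fell and 0 rose in the authors' deposited table (11.1% lower, against 5.61% of all entries and 6.68% over the list's bins of transcript length). It was Tfap4, listed as Tcfap4 and itself a MYC-activated gene (log2 fold -2.10, approximate SE 0.74, adjusted p = 0.0422) in the authors' deposited table. Mlx, the MAX-like partner of a parallel nutrient-sensing branch, had a log2 fold of -0.56, and its partner gene Mlxip one of 0.71, in the authors' deposited table, without passing. The 1 call among these 9 genes is not read as a departure from the background shares.

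Genes that set MYC protein stability were called at a share near the background. Of 12 tested, 1 fell and 0 rose in the authors' deposited table (8.33% lower, against 5.61% of all entries and 5.14% over the list's bins of transcript length). The member that fell was the mitotic kinase gene Aurka, which shields MYCN from degradation (log2 fold -1.56, adjusted p = 0.00907), in the authors' deposited table. The ubiquitin ligase gene Skp2 (-0.11) and Gsk3b (0.17), whose kinase marks MYC for degradation, missed the threshold in the authors' deposited table. Fbxw7, which encodes the ligase that reads that mark, has 2 entries in the authors' deposited table. The entry used has an infinite ratio and an adjusted p of 0.773, so no fold is given.

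Among regulators of Myc transcription 3 of 24 rose and 0 fell in the authors' deposited table (12.5% higher, against 5.72% of all entries and an average of 8.45% over the list's bins of transcript length). A count of 3 in 24 is not read as a departure from that background. Bcl6, a germinal centre repressor, had a log2 fold of 2.75 (approximate SE 0.51, adjusted p = 1.05e-05) in the authors' deposited table. Prdm1, which encodes BLIMP1, a repressor of Myc in plasma cell differentiation, had one of 3.29 (approximate SE 0.97, adjusted p = 0.0106) in the authors' deposited table. Myb, a proto-oncogene known to activate Myc, rose as well (1.34, approximate SE 0.34, adjusted p = 0.00198) in the authors' deposited table. Stat5a (-0.75) and Notch1 (-0.72), other activators of Myc, missed the threshold in the authors' deposited table.

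Pairs of these factors with MAX bind the E-box CACGTG, a palindrome that reads alike on both strands, and it was searched in RefSeq promoter windows (GRCm38.p6) of 250 bases before to 50 after each gene's start. Of the 10 network genes, 9 have such a window (all but Myc), and Max, Mxd4 and Mnt hold 1 CACGTG each. The stretches show where the network's own genes carry its motif, in capitals, beside 2 MYC-activated genes that fell and were picked because they hold it. Of the 6 fallen genes named above, Shmt2 and Pa2g4 have windows with 0 CACGTG, and Fbl and Ccnd2 have no window.
Max promoter: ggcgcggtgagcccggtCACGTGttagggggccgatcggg
Mxd4 promoter: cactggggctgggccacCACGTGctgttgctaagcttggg
Mnt promoter: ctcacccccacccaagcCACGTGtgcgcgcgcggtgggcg
Ldha promoter: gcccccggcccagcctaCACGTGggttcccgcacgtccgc
Nme1 promoter: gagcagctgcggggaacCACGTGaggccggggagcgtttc

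The Max stretch is chr12:76962229-76962268 on the minus strand, and its motif begins at base -3 relative to the start. In Mxd4 (chr5:34187907-34187946, minus strand) it begins at -219, and in Mnt (chr11:74830784-74830823, plus strand) at -123. In Ldha (chr7:46845739-46845778, plus strand) it begins at -48 and another lies at -145 in the same window. The window of another Ldha start holds 0 CACGTG. In Nme1 (chr11:93968268-93968307, minus strand) it begins at -18, and the window of another Nme1 start holds 1 at -29. None of Max, Mxd4 and Mnt passed, and the windows of Mga, Mxd1, Mxd3, Mxi1, Mycn and Mycl1 hold no CACGTG. No match says only that these letters are not in this window.

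Across 11503 tested genes with a promoter window, CACGTG stood in 13.3% of 833 genes that fell, 9.87% of 618 that rose and 11.0% of 10052 not called. The share in fallen genes was 1.21 times that in uncalled genes. For 7 other palindromes of the same bases with CG at the centre this ratio ran from 1.06 to 1.82, so that of the E-box lay within their range. Palindrome 1 is ACCGGT, palindrome 2 is TGCGCA, palindrome 3 is GTCGAC and palindrome 4 is CTCGAG. Palindrome 5 is AGCGCT, palindrome 6 is GACGTC and palindrome 7 is TCCGGA. Among the MYC-activated genes that fell, 9 of 28 with a window held CACGTG (32.1%), against 11.1% of all genes. That list was drawn from genes known as MYC targets. Over the whole list, called or not, 10 of 35 held it (28.6%), and 1 of the 7 not called did. A share above that of all genes was not particular to this list. Over whole lists, 5 of 13 MYC-repressed genes with a window held CACGTG (38.5%), as did 2 of 7 wider-network partners (28.6%). The MYC-repressed matches were 5 of 11 genes not called and 0 of 2 that rose.

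**Figure D4:**
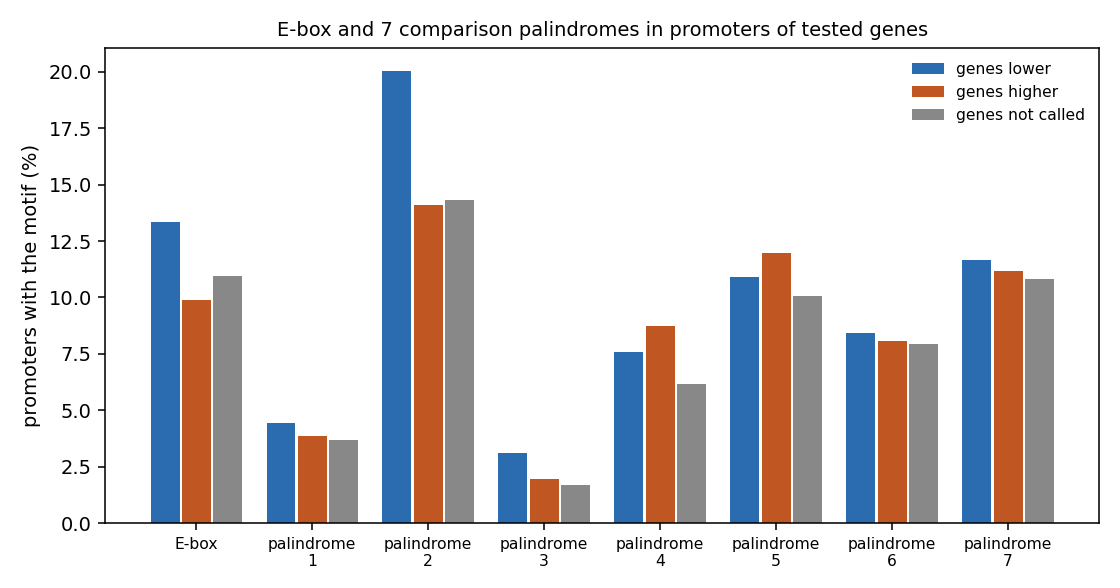
Share of promoters (y axis, percent) that hold the E-box or each of 7 comparison palindromes (x axis, numbered as in the text) among genes called lower, called higher and not called. For the E-box the shares are 13.3%, 9.87% and 11.0%, and palindrome 2 shows a wider gap between lower (20.0%) and uncalled (14.3%) genes.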

How the data were processed

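Tumour RNA of 6 samples (3 DOX, 3 no DOX) was compared by the authors. Per the labels' protocols, tumour tissue was made into suspensions of single cells, red cells were lysed, and ribosomal RNA was depleted from total RNA. The submitters' processing notes name RSEM, DESeq and mouse build mm9, with no versions. Per the file headers, the authors' deposited table holds a linear ratio (fold change), its log2, and unadjusted and adjusted p-values; depth per sample is unknown. A Benjamini-Hochberg adjustment recomputed over the 18543 tested entries matched the deposited adjusted p within 2.09e-06. No test across samples was run here, and since the samples' values are not in this table the tests are the authors' own. Log2 folds were taken from the ratio, which is 0 for 579 tested entries and infinite for 2180. The approximate SE and 95% interval assume a normal distribution of the log2 fold and are unstable for folds near 0.

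The members and lists were chosen with earlier results of these data known. A list gene was read under its own symbol or, failing that, under an entry matched to current mouse symbols by symbol (11736 tested entries), accession (1406) or unique synonym (2022), with 3379 unmatched. Called list members with the 6 smallest adjusted p-values were named, with all members and the 2 entries on either side of Myc by p-value. For repeated symbols the first entry was used. The deposited list is sorted by adjusted p, so this tends to take the entry with the smaller adjusted p and favours calls. Without repeated symbols, 32 of 39 MYC-activated genes were lower. Transcript length and 3' UTRs came from GENCODE release M21 (GRCm38), used for sequence, length and the coordinates of its own sites, and never combined with mm9 coordinates. The adjustment and sequence searches were tested on simulated data. Python 3.11.15, pandas 2.3.3, numpy 2.4.6, scipy 1.17.1 and matplotlib 3.10.9 were used. Alternatives changed the threshold, the adjustment, the entries counted, the centring, the promoter window and motif, and the seed match.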

Additional observations from a re-analysis of the deposited data

How the results depend on the processing

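Myc passed as lower under all 5 other thresholds and adjustments tried. Mga passed as higher under 4 and not under Bonferroni, which left 0 members higher. Centring on the median of all finite folds turned Mxd4 to -0.024 and Mxi1 to -0.015 on the log2 scale. No paired analysis was possible because the deposited table holds no values per sample, and leaving out replicates was not run for the same reason. At an adjusted p under 0.01, MYC coactivators kept 3 lower calls, wider-network partners 0, MYC-repressed genes 1 higher, B lineage markers 1 higher and endothelial markers 0 lower. At 0.1, regulators of Myc gained 1 lower call, as they did over finite folds only (1), B lineage markers had 2 lower, macrophage markers 4 higher and T cell markers 1 higher. The counts for MYC-activated genes stayed within 1.5 times. CACGTG in the 250 bases before the start stood in 10.9% of fallen and 9.29% of uncalled promoters, and the wider E-box CANNTG in 66.1% of fallen, 71.4% of risen and 69.1% of uncalled ones. Chosen after seeing the data, splits into 3 bins of promoter GC gave, from low to high, 12.0%, 11.9% and 16.3% of fallen, 6.61%, 13.0% and 10.7% of risen and 8.41%, 12.0% and 12.7% of uncalled promoters, so in the middle bin fallen genes were not above the others. Genes with 1 start gave 12.0% of fallen, 8.35% of risen and 9.59% of uncalled ones. With 8mer matches only, 1 network gene held a miR-155 seed match. Depth is unknown, so whether a gene that did not pass had too few reads cannot be told.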
